A study of Mus musculus with 18 samples.

Results

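The 9 genes described here are Mbp, Mag, Mog, Mobp, Cnp, Mal, Ugt8a, Tmem88b and Trf, which in brain are expressed mainly or strongly by myelin-forming oligodendrocytes. They were taken by name, 9 of the 37319 rows of the deposited expression table, and all 9 passed the filter on low values in each comparison. The series measured RNA of the ipsilateral cortex of adult male C57BL/6J mice, 8 to 10 weeks old and weighing 24 to 26 g, in 18 libraries of 6 groups, with 3 libraries in each group. Adeno-associated virus (AAV) carrying an shRNA under the synapsin (SYN) promoter, which is active in neurons, was injected into the left lateral ventricle 4 weeks before surgery. The shRNA was either directed at Tiparp, a gene for an enzyme that attaches ADP-ribose to proteins (groups ending in _T, here the Tiparp arm), or was a scrambled control, so every mouse carried an injected virus (groups ending in _C, here the control arm). Surgery was a sham operation (Sham_C, Sham_T) or tMCAO, a passing blockage of the middle cerebral artery that models ischaemic stroke, with tissue taken after 24 h (R24h_C, R24h_T) or 28 d (R28d_C, R28d_T). The labels do not give the interval between sham surgery and tissue collection. Nor do they say that the 3 libraries of a group came from 3 mice, so the p-values below measure the spread between libraries.

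Oligodendrocytes wrap axons in myelin, a stack of membranes that insulates the axon and speeds conduction. The sheath is made of a small set of very abundant proteins and of lipids rich in cholesterol and galactosylceramide, and its cells hold much of the iron of the brain and are sensitive to lack of oxygen. Because the tissue was whole cortex and the synapsin promoter is not active in oligodendrocytes, the shRNA was not aimed at the cells that express these genes. In bulk RNA, fewer oligodendrocytes and less of a transcript in each oligodendrocyte cannot be told apart.

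The genes fall into groups by what their products do. Mbp (myelin basic protein) and Mobp (myelin-associated oligodendrocyte basic protein) lie on the cytoplasmic face and hold the layers together. Mal is a small membrane protein of lipid rafts that takes part in sorting proteins to myelin. Cnp (a cyclic nucleotide phosphodiesterase) sits in uncompacted myelin and keeps cytoplasmic channels open. Mog (myelin oligodendrocyte glycoprotein) is on the outer surface of the sheath, and Mag (myelin-associated glycoprotein) faces the axon. Ugt8a makes galactosylceramide. Trf is transferrin, the iron carrier, made in brain by oligodendrocytes and by the choroid plexus, and Tmem88b encodes a transmembrane protein.

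Promoters were looked up because Mog and Tmem88b varied differently across the libraries, as described below, with Mag varying more like Tmem88b. RefSeq promoter windows (build GRCm38.p6) were found for 7 of the 9 genes. The 250 bases before the start are shown for Mog (chr17:37023399-37023648), for 1 of the start sites of Mag (chr7:30914923-30915172) and for Tmem88b (chr4:155785875-155786124), all on the minus strand and written 5′ to 3′. Capitals mark matches to CTGGNAC or its reverse complement GTNCCAG, a motif of the myelin regulatory factor Myrf, and to ACAAT or its reverse complement ATTGT, a core motif of SOX factors, with no overlap between matches.
Mog: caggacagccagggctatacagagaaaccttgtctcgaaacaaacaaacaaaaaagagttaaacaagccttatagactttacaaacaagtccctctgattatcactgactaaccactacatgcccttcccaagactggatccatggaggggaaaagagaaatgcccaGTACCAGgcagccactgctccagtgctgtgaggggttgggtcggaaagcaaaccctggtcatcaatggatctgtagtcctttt
Mag: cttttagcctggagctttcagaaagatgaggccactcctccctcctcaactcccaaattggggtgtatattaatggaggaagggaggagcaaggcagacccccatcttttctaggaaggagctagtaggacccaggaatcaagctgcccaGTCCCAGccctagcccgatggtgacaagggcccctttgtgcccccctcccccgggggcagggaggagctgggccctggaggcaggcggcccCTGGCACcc
Tmem88b: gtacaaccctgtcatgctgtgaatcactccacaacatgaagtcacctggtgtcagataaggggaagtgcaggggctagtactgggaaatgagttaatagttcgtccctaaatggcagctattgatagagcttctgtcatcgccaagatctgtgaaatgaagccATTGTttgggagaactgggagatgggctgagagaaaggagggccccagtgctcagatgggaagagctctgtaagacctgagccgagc
The Mog window held 1 match to the Myrf motif and the Mag window 2, and neither held the SOX core. The Tmem88b window held 1 SOX core and no Myrf motif. Among the windows not shown, that of Cnp held 2 matches to the Myrf motif and the other Mag windows 2 and 0. The Mag window with 2 (chr7:30914864-30915113) overlaps the one shown, and its 2 matches are the same sites. The windows of Mal, Mobp and Ugt8a held no Myrf motif, and no window among those not shown held the SOX core. Of 32841 mouse promoter windows of the same length, 16.1% held the Myrf motif and 27.7% the SOX core, so matches of either kind are common and describe letters only.

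By a rough estimate libraries were close in depth, and they were unequal in how strongly they showed the injury. Low values are multiples of what 1 fragment is worth, and their most common ratio put the relative depth between 0.932 and 1.08 of that of Sham_C1. Only 7.24% to 9.84% of the low genes held that ratio, which was sought within a limited range around equal depth. Tiparp itself was not lower in the Tiparp arm after sham surgery, at 4.45, 4.76 and 3.77 FPKM (fragments per kilobase of transcript, scaled to library size) in Sham_C and 4.17, 4.95 and 4.57 FPKM in Sham_T. It overlapped between arms at 24 h (4.60 to 8.65 and 3.00 to 5.00 FPKM) and 28 d (3.59 to 4.46 and 3.72 to 4.06 FPKM). Library R24h_T3 had 11.5 FPKM of Spp1, a gene of activated microglia and macrophages, where the other 24 h libraries had 162 to 703 FPKM. R28d_T3 had 10.6 and R28d_C1 had 4.97 FPKM of Spp1, where the other 28 d libraries had 34.3 to 260 FPKM and the sham libraries 3.00 to 6.77 FPKM. Ttr, the main transcript of the choroid plexus, exceeded 100 FPKM in Sham_T1, Sham_T2, R24h_C3 and R28d_T2, and was at most 81.9 FPKM in the others. Results are therefore also given without R24h_T3, R28d_T3 or the libraries high in Ttr where that changes them, which are alternatives chosen after seeing the data, other than leaving out single libraries. Leaving out the libraries high in Ttr keeps only Sham_T3 of the Sham_T group. The summed level of 7 markers of peripheral nerve myelin was 6.46 to 20.6 FPKM, with 0 to 3 of the 7 listed at 0 in a library, and Pmp2, 1 of them, reached at most 0.0438 FPKM.

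In Sham_C the 9 transcripts spanned a wide range per unit of length. Mobp (99.0 ± 10.0 FPKM, SD, n = 3) and Mbp (98.2 ± 7.27 FPKM, SD, n = 3) were highest and overlapped. Mal followed at 43.4 FPKM and Cnp at 28.5 FPKM, each apart from its neighbours. Trf (17.0 FPKM), Mag (15.3 FPKM) and Mog (13.0 FPKM) came next, and neighbours in that order overlapped. Tmem88b (5.48 FPKM) and Ugt8a (3.38 FPKM) were lowest and apart from each other. At 24 h in the control arm the order differed: Trf, at 96.5 FPKM, stood between Mobp (158 FPKM) and Mbp (90.1 FPKM), with overlapping libraries. At 28 d in the control arm Trf was back below Mal, at 34.1 FPKM, and overlapped Cnp at 37.9 FPKM.

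**Figure D1:**
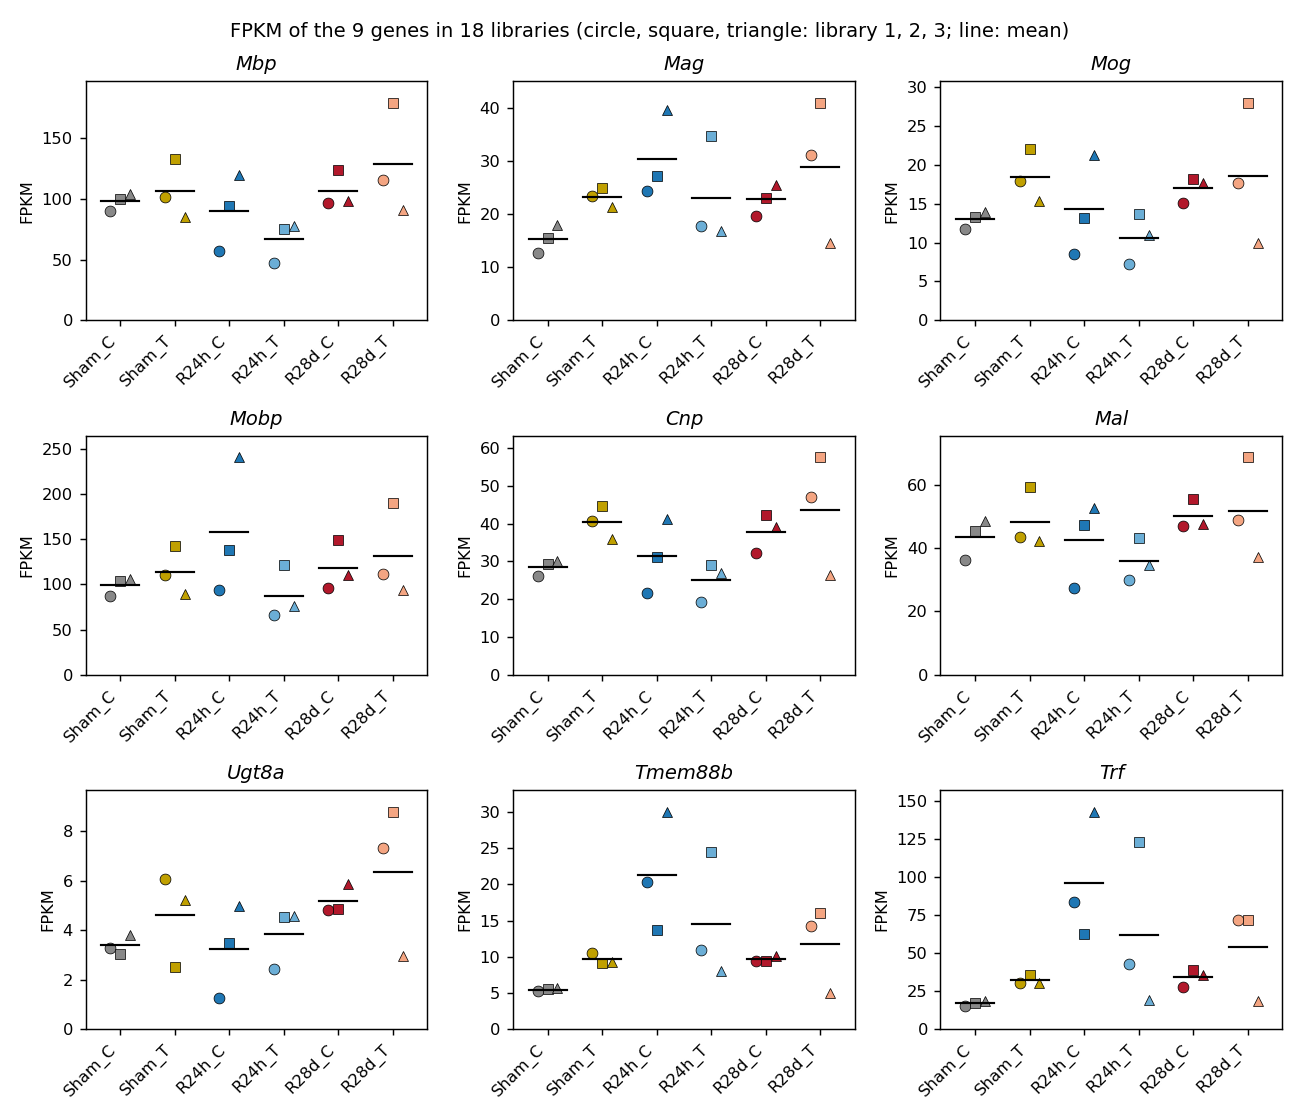
FPKM of each of the 9 genes (vertical axes, linear from 0) in the 6 groups, with 1 point per library, marked by library number, and a line at the group mean. Trf and Tmem88b sit highest in the 24 h groups, Mbp, Mog, Cnp and Mal do not, and R28d_T3 (triangle) is the lowest of its group for all 9 genes.

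The first question was what the stroke did to these transcripts within 24 h. Trf and Tmem88b rose at 24 h, while transcripts of the compact sheath did not pass the test. Trf was at 15.6, 17.0 and 18.3 FPKM in Sham_C and at 83.9, 62.5 and 143 FPKM in R24h_C. With the Tiparp shRNA, Trf was at 30.3, 35.7 and 30.6 FPKM after sham surgery and at 42.6, 124 and 19.5 FPKM at 24 h. All R24h_C libraries were above all sham libraries of either arm, as were R24h_T1 and R24h_T2, whereas R24h_T3 was below the 3 Sham_T libraries. Over both arms Trf was higher at 24 h by a log2 difference of 1.45 (SE 0.36, 95% interval 0.67 to 2.23, limma adjusted p = 0.0143), where differences are of log2(FPKM + 1).

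Tmem88b followed the same pattern. It was at 5.25, 5.49 and 5.68 FPKM in Sham_C and at 20.4, 13.7 and 30.1 FPKM in R24h_C. With the Tiparp shRNA it was at 10.5, 9.18 and 9.25 FPKM after sham surgery and at 10.9, 24.5 and 8.09 FPKM at 24 h. R24h_T3 was again the lowest 24 h library and lay below all 3 Sham_T libraries. The log2 difference over both arms was 1.06 (SE 0.24, 95% interval 0.55 to 1.58, limma adjusted p = 0.00934).

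Mag, the glycoprotein facing the axon, was at 12.6, 15.5 and 17.9 FPKM in Sham_C and at 24.2, 27.2 and 39.5 FPKM in R24h_C. Its Tiparp arm values were 23.4, 24.9 and 21.2 FPKM after sham surgery and 17.7, 34.7 and 16.7 FPKM at 24 h. The control arm groups did not overlap, and those of the Tiparp arm did. Over both arms the difference was 0.42 (95% interval 0.02 to 0.82, limma adjusted p = 0.108) and did not pass.

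Mbp, which compacts the sheath, was at 90.2, 99.9 and 104 FPKM in Sham_C and at 56.8, 94.2 and 119 FPKM in R24h_C. In the Tiparp arm it was at 101, 133 and 85.0 FPKM after sham surgery and at 47.5, 75.0 and 77.4 FPKM at 24 h. The 24 h libraries of the Tiparp arm were all below its sham libraries, and the control arm overlapped. Over both arms the difference was -0.43 (95% interval -0.85 to -0.01, limma adjusted p = 0.114).

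Of the 9 genes, 2 were higher and none lower at 24 h over both arms at an adjusted p under 0.05, where 26.1% of all genes tested passed, 20.4% as higher and 5.71% as lower. The median difference of the 9 was -0.17, beside 0.10 over all genes tested. Mog (-0.36), Cnp (-0.30), Mal (-0.25), Ugt8a (-0.17) and Mobp (0.08) did not pass, with limma adjusted p between 0.163 and 0.815. Mobp was spread widest in R24h_C, at 93.8, 138 and 240 FPKM. Ugt8a was lowest of all 18 libraries in R24h_C1, at 1.26 FPKM, beside 2.52 to 6.07 FPKM in the sham libraries.

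Without R24h_T3 the same 2 genes passed, Trf at 1.76 (limma adjusted p = 0.0011) and Tmem88b at 1.22 (limma adjusted p = 0.00228), where 36.4% of all genes passed. Without the libraries high in Ttr, with Sham_T3 alone left of Sham_T, neither passed, and the differences were 1.32 for Trf and 0.95 for Tmem88b. The choroid plexus is a known source of transferrin, so its marker is given beside Trf: R24h_T2, with 124 FPKM of Trf, had 8.32 FPKM of Ttr, within the 7.39 to 13.4 FPKM of the sham libraries that were not high. R24h_C3, with the highest Trf, had 1682 FPKM of Ttr, and R24h_C1, with 83.9 FPKM of Trf, had 7.11 FPKM.

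**Figure D2:**
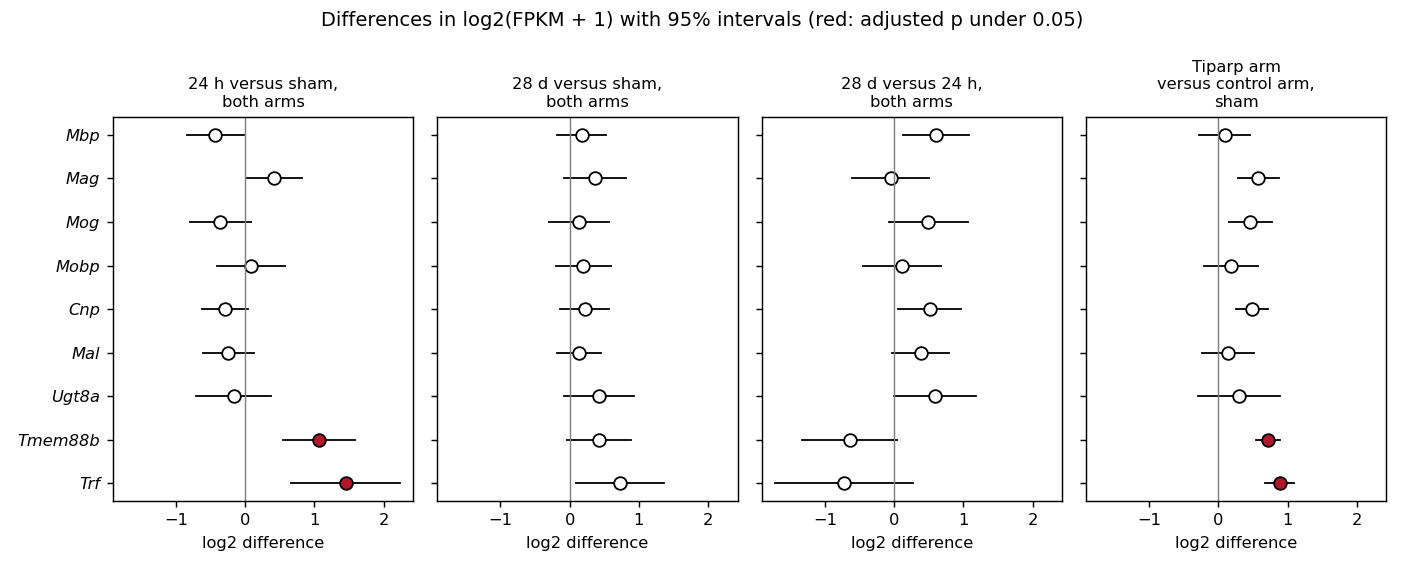
Differences in log2(FPKM + 1) with 95% intervals for the 9 genes in 4 comparisons, filled where the limma adjusted p was under 0.05. At 24 h Trf (1.45) and Tmem88b (1.06) lie to the right while Mbp (-0.43) lies to the left, and at 28 d all 9 points lie to the right of 0 with none filled.

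By arm, 3 of the 9 genes passed at 24 h in the control arm and none in the Tiparp arm. In the control arm Trf (2.36, SE 0.28, limma adjusted p = 0.00541), Tmem88b (1.72, SE 0.25, limma adjusted p = 0.00905) and Mag (0.92, SE 0.21, limma adjusted p = 0.0244) were higher, where 24.0% of all genes passed and 19.8% as higher. These 3 genes were above Sham_C with no overlap, as were 36.1% of all genes tested. Without R24h_C3, the library of that arm high in Ttr, all 3 passed, with Trf at 2.03 (limma adjusted p = 0.00536), Tmem88b at 1.45 (limma adjusted p = 0.0134) and Mag at 0.72 (limma adjusted p = 0.0378), where 15.2% of all genes passed. Without R24h_C1 only Trf passed, and Mag also lost the call without each of the Sham_C libraries in turn. The median over all genes was 0.13 in this arm, which is the shift against which the differences stand.

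In the Tiparp arm none of the 9 passed at 24 h, where 0.200% of all genes passed and 14.3% had an unadjusted p under 0.05. Trf was at 0.54 (95% interval -0.76 to 1.84) and Tmem88b at 0.40 (95% interval -0.39 to 1.19). Mog (-0.77, limma adjusted p = 0.228), Cnp (-0.68, limma adjusted p = 0.184) and Mbp (-0.68, limma adjusted p = 0.281) were below Sham_T in every library, as were 8.27% of all genes tested. Mog was at 17.9, 22.0 and 15.4 FPKM in Sham_T and at 7.22, 13.7 and 11.0 FPKM in R24h_T. Cnp was at 40.7, 44.8 and 35.8 FPKM in Sham_T and at 19.2, 29.0 and 27.1 FPKM in R24h_T. Without R24h_T3 again none passed, with Trf at 1.15 (limma adjusted p = 0.139), where 6.23% of all genes passed.

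Whether the 24 h response differed between arms was tested directly. For all 9 genes the difference between Tiparp arm and control arm responses was negative, from -1.82 for Trf (95% interval -3.38 to -0.26, limma adjusted p = 0.417) to -0.03 for Ugt8a, and none passed. Tmem88b (-1.32, 95% interval -2.36 to -0.29) and Mag (-1.01, 95% interval -1.81 to -0.21) followed Trf in size, both with a limma adjusted p of 0.416. Without R24h_T3 the value for Trf was -1.21 (95% interval -2.42 to 0.01). Without the libraries high in Ttr those for Mbp (0.04), Ugt8a (0.06) and Mal (0.0042) were positive, and Mobp moved from -0.96 to -0.29 and Mog from -0.81 to -0.27. In this test 0 of 14578 genes passed (0%), and 10.9% had an unadjusted p under 0.05, with a median of -0.09 over all genes. Each value is the arm difference at 24 h minus that after sham surgery. After sham surgery the arm differences of the 9 genes were all positive, from 0.09 for Mbp to 0.89 for Trf. At 24 h the arms themselves did not differ in any of the 9 genes at that threshold, with a difference (Tiparp arm minus control arm) of -0.94 for Trf (95% interval -2.38 to 0.51) and -0.78 for Mobp (95% interval -1.65 to 0.08). Without R24h_T3 that of Trf was -0.32 (95% interval -1.58 to 0.94), and without R24h_C3, the library high in Ttr, that of Mobp was -0.43 (95% interval -1.17 to 0.32). No gene of 14010 passed there (0%), and 7.23% had an unadjusted p under 0.05.

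Other cell types changed in the same libraries, and their part in these results was not tested. The summed level of 12 neuron markers was 1517 to 1572 FPKM in Sham_C and 770 to 1474 FPKM in R24h_C. With the Tiparp shRNA it was 1401 to 1524 FPKM after sham surgery and 1268 to 1670 FPKM at 24 h, with R24h_T3 above every sham library. The summed level of 8 monocyte and neutrophil markers was 6.47 to 7.70 FPKM in the sham groups, 107 to 324 FPKM in R24h_C and 17.9 to 91.0 FPKM in R24h_T. Of these 8, 6 were tested and all 6 were higher at 24 h over both arms, beside 20.4% of all genes. Lcn2, at 0.14 to 0.36 FPKM in the sham libraries, passed the filter on low values only through its 24 h values. The outcome for such a marker was largely fixed by the filter. The summed level of 11 striatal neuron markers was 94.4 to 447 FPKM in R24h_C and 154 to 236 FPKM in Sham_C, and 91.3 to 135 FPKM in R24h_T and 177 to 382 FPKM in Sham_T.

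The second question was where these transcripts stood at 28 d. The comparison used the same sham libraries as that at 24 h. All 9 differences from sham were positive over both arms, and none passed over all 12 libraries. The largest was Trf at 0.73 (95% interval 0.09 to 1.36, limma adjusted p = 0.236), followed by Tmem88b (0.42) and Ugt8a (0.42) at limma adjusted p of 0.329 and 0.368. Mag was at 0.37, Cnp at 0.22, Mobp at 0.20, Mbp at 0.17, Mal at 0.14 and Mog at 0.13. The median of the 9 was 0.22, beside 0.04 over all genes. Only 1 gene of 14234 passed (0.00703%), and 17.3% had an unadjusted p under 0.05.

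The count at 28 d rested on 1 library. R28d_T3 was below the Sham_T mean for all 9 genes, with a median difference of -0.59, while R28d_T2 was above it for all 9, with a median of 0.75. Trf was at 71.8, 72.1 and 18.3 FPKM in R28d_T, Tmem88b at 14.2, 16.1 and 5.03 FPKM, and Mag at 31.1, 40.9 and 14.6 FPKM. In each case the third library was low and the other 2 were above all 3 Sham_T libraries. Ugt8a, the lipid enzyme, was at 7.31, 8.79 and 2.97 FPKM in the same order.

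Without R28d_T3, 5 of the 9 genes were higher at 28 d than in sham, where 12.0% of all genes passed and 10.2% as higher. They were Trf (1.05, SE 0.09, limma adjusted p = 0.00122), Tmem88b (0.66, SE 0.05, limma adjusted p = 0.00122), Mag (0.58, limma adjusted p = 0.0107), Cnp (0.38, limma adjusted p = 0.026) and Ugt8a (0.62, limma adjusted p = 0.0374). Mog (0.32), Mobp (0.30), Mbp (0.28) and Mal (0.24) did not pass, with limma adjusted p between 0.138 and 0.305. R28d_T3 was the lowest of its group for all 9 genes, so leaving it out raised their 28 d means. With R28d_C1 left out instead, which was lower still in Spp1, none of the 9 passed, and 3 genes of all tested did. Without the libraries high in Ttr, with R28d_T3 kept, none of the 9 passed and no gene of 13917 did (0%), with 8.32% at an unadjusted p under 0.05 by limma.

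**Figure D3:**
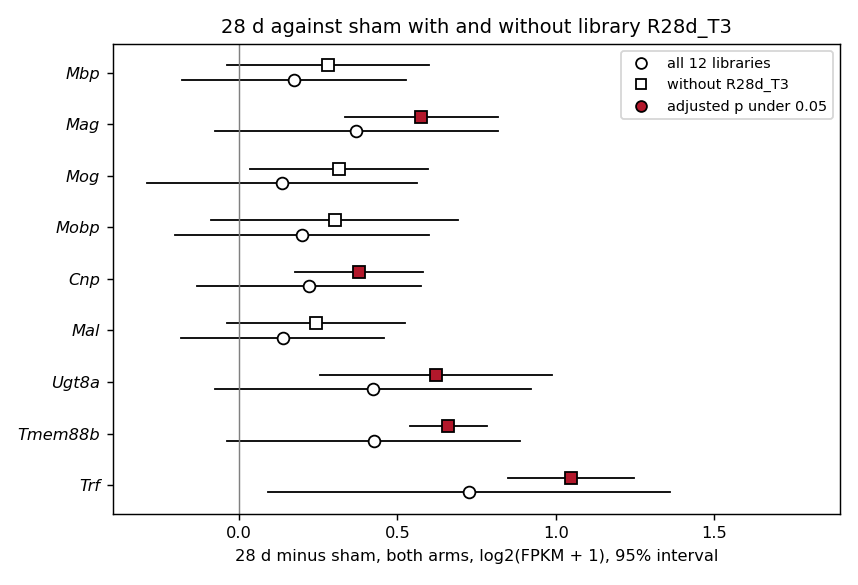
Differences in log2(FPKM + 1) between 28 d and sham over both arms with 95% intervals, from all 12 libraries (circles) and without R28d_T3 (squares), filled where the limma adjusted p was under 0.05. Trf moves from 0.73 to 1.05 and its interval narrows, and 5 of the 9 squares are filled but no circle.

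In the control arm alone Tmem88b was the 1 gene of the 9 to pass at 28 d, at 9.38, 9.46 and 10.2 FPKM beside 5.25 to 5.68 FPKM in Sham_C (0.72, SE 0.06, limma adjusted p = 0.0365), where 0.0522% of all genes passed. It lost the call without any 1 of the Sham_C libraries, R28d_C2 or R28d_C3. Trf was at 27.8, 38.7 and 35.9 FPKM in R28d_C, above all 3 Sham_C libraries (0.96, limma adjusted p = 0.152). Mag (0.55), Ugt8a (0.49), Cnp (0.39) and Mog (0.36) were also above Sham_C in every library without passing, as were 12.6% of all genes tested. In R28d_C, library 1, which was low in Spp1, was the lowest of its group for all 9 genes. In the Tiparp arm none passed, where 0.00739% of all genes passed and 10.5% had an unadjusted p under 0.05. Without R28d_T3 Trf (1.14, limma adjusted p = 0.011) and Tmem88b (0.60, limma adjusted p = 0.0346) did, where 4.25% of all genes passed.

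The 28 d response did not differ between arms at the threshold for any of the 9 genes. The difference between responses ran from -0.59 for Tmem88b (95% interval -1.52 to 0.33) to 0.13 for Mbp (95% interval -0.58 to 0.84), where 0.00703% of all genes passed and 4.85% had an unadjusted p under 0.05. Without R28d_T3 the value for Tmem88b was -0.12 and that for Mbp 0.35, and Trf moved from -0.46 to 0.18. Between the arms at 28 d the differences of the 9 genes ran from 0.0038 for Mal to 0.43 for Trf (95% interval -0.81 to 1.66). No gene of 13773 passed there (0%), and 2.52% had an unadjusted p under 0.05. Without R28d_T3 the differences between arms at 28 d were 1.07 for Trf (95% interval 0.69 to 1.44), 0.63 for Mag (95% interval 0.24 to 1.03), 0.59 for Tmem88b (95% interval 0.37 to 0.82) and 0.55 for Ugt8a (95% interval 0.24 to 0.86), each with a limma adjusted p of 0.383. In that fit again no gene of 13653 passed (0%), and 12.0% had an unadjusted p under 0.05. Without R28d_T2, the library high in Ttr, the differences ran from -0.32 for Mog to 0.11 for Trf.

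Between 24 h and 28 d differences of both signs were seen, and none of the 9 passed over both arms, where 4.14% of all genes passed and 26.9% had an unadjusted p under 0.05. Mbp (0.60, 95% interval 0.12 to 1.08, limma adjusted p = 0.113), Ugt8a (0.59), Cnp (0.52), Mog (0.50) and Mal (0.38) were at positive differences. Trf (-0.72, 95% interval -1.72 to 0.27, limma adjusted p = 0.32) and Tmem88b (-0.64) were at negative ones, and Mobp (0.12) and Mag (-0.05) lay near 0. Without R24h_T3 and R28d_T3 Cnp passed (0.71, limma adjusted p = 0.0457), where 11.5% of all genes passed.

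The Tiparp shRNA was also compared with the control shRNA in mice without stroke. After sham surgery Trf (0.89, SE 0.09, limma adjusted p = 0.0188) and Tmem88b (0.71, SE 0.07, limma adjusted p = 0.0188) were higher in the Tiparp arm, 2 of 9, where 0.210% of all genes passed and 0.0824% as higher. Trf was at 32.2 ± 3.05 FPKM (SD, n = 3) in Sham_T and 17.0 ± 1.35 FPKM (SD, n = 3) in Sham_C. Mag (0.58, limma adjusted p = 0.177), Cnp (0.49, limma adjusted p = 0.145) and Mog (0.46, limma adjusted p = 0.257) were above Sham_C in all 3 libraries without passing, as were 10.6% of all genes tested. Mbp (0.09, 95% interval -0.28 to 0.46), Mal (0.14) and Mobp (0.18) overlapped between arms.

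Of the Sham_T libraries, Sham_T1 and Sham_T2 were high in Ttr (624 and 501 FPKM). Sham_T3, with 7.39 FPKM of Ttr, had 30.6 FPKM of Trf and 9.25 FPKM of Tmem88b, above all 3 Sham_C libraries. With Sham_T3 as the only library of that group the differences were 0.82 for Trf (limma adjusted p = 0.119) and 0.66 for Tmem88b (limma adjusted p = 0.121), which did not pass and assume that the lone library varies like the control group, and 0.162% of all genes passed. Both calls were also lost without Sham_C1, Sham_C2 or Sham_T1. Since Tiparp transcript was not lower in Sham_T, the arms here are those of the labels.

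Other genes of oligodendrocytes and myelin were counted in the same fits over both arms, and each count at 24 h stands beside the 20.4% of all genes that were higher and the 5.71% that were lower. Of 20 structural myelin proteins, 3 were higher at 24 h, Cd9 (1.45), Pmp22 (0.85) and Cldn11 (0.84), and 2 lower, Sept4 (-0.32) and Gpm6b (-0.31), with a median of 0.12 beside 0.10 over all genes. Cd9 and Pmp22 are also expressed by other cells of the brain. Of 10 genes of myelin lipid synthesis, 2 were higher, the ceramide synthase Cers2 (0.67) and the fatty acid elongase Elovl1 (0.64), and Aspa, which cleaves N-acetylaspartate, was lower (-0.34). Of 18 genes of cholesterol synthesis and uptake, 2 were higher, among them Hsd17b7 (0.52). With so few genes in each of these 3 lists, the counts higher do not set the lists apart from the share of all genes.

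Of 18 genes of mature oligodendrocytes 7 were higher at 24 h and none lower, beside 20.4% of all genes higher, with a median of 0.42, and the 4 with the smallest p were Apod (2.11), Klk6 (2.64), Adamts4 (1.05) and Ptgds (1.15). Apod and Ptgds are also expressed by meningeal and perivascular cells, and 5 of 10 tested blood and meningeal markers were higher in the same comparison. Without the libraries high in Ttr 5 of the 18 were higher, beside 4.04% of all genes. Of 8 genes known to rise in stressed oligodendrocytes 7 were higher, with a median of 1.65, among them Serpina3n (5.00) and C4b (1.66), which reactive astrocytes also express. The lists share genes, so their counts are not separate. Klk6 and Il33 are also on the mature list, and Steap3 is also among the iron handling genes below. Gjb1 is on both the structural and the mature list. Of 10 transcription factors Nkx6-2 (0.77) and Myrf (0.63), both active in maturing oligodendrocytes, were higher and Sox8 (-1.11) was lower.

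Genes of earlier stages were counted too, beside the same 20.4% of all genes higher and 5.71% lower. Of 10 oligodendrocyte precursor genes 2 were lower at 24 h, among them C1ql1 (-0.57), and none was higher. Of 7 genes of newly formed oligodendrocytes, Gpr17 (-1.18) and Neu4 (-0.62) were lower and Tmem2 (0.30) higher. The summed level of these 7 nevertheless was 71.5 to 160 FPKM in R24h_C, above the 44.3 to 45.5 FPKM of Sham_C. It was 20.3 to 77.4 FPKM in R24h_T and 48.0 to 68.2 FPKM in Sham_T. Of 17 signals and inhibitors of myelination 7 were higher, among them Bmp4 (0.65) and Lif (1.26), and 2 lower, Id4 (-0.80) and Lingo1 (-0.70). Without the libraries high in Ttr none of the precursor or newly formed genes passed.

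Iron handling genes were counted because transferrin carries iron. Of 10 tested, 6 were higher at 24 h and 1 lower, beside 20.4% and 5.71% of all genes, with a median of 0.41. Among them were the ferroxidase ceruloplasmin Cp (1.65), the ferritin light chain Ftl1 (0.90), the metal transporter Slc39a14 (1.13) and the ferritin heavy chain Fth1 (0.52). These genes are expressed by many cell types.

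At 28 d no gene of any of these lists passed against sham over all 12 libraries. Without R28d_T3, 9 of 20 structural myelin proteins, 13 of 18 mature genes, 4 of 10 lipid genes and 4 of 10 transcription factors were higher and none of them lower, where 10.2% of all genes were higher. Sox10, a transcription factor of the oligodendrocyte lineage, was at 0.54 (limma adjusted p = 0.0025) and Klk6 at 1.58 (limma adjusted p = 0.00496). Of the cholesterol genes 7 of 18 were lower in that fit and none higher, beside 1.80% of all genes lower, with a median of -0.36, among them Fdft1 (-0.44). Microglia markers were higher in the same fit, 7 of 10, and Gfap was at 3.10, and their part in these results was not tested. Between 24 h and 28 d over all 12 libraries C1ql1 (0.91), Neu4 (0.63) and Sox8 (0.97), all lower at 24 h than in sham, were higher at 28 d, beside 1.74% of all genes. The same 24 h libraries entered both comparisons, so genes picked as low in them lean towards a positive difference here.

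Across the 18 libraries Mbp, Mal, Mog and Cnp varied together, as did Trf and Tmem88b, with Ugt8a closer to the first of these sets and Mag and Mobp related to both. As a description over 18 libraries that share groups and normalization, Pearson's r of log2(FPKM + 1) was 0.97 for Mog with Cnp, 0.93 for Mbp with Mal and 0.91 for Mbp with Mog. It was 0.98 for Trf with Tmem88b. Between these sets r ran from -0.01 for Mbp with Tmem88b to 0.27 for Mog or Cnp with Trf. Ugt8a had an r of 0.76 with Cnp and 0.15 with Trf. Mag had an r of 0.89 with Trf and 0.87 with Tmem88b, and also 0.64 with Mog, 0.63 with Cnp, 0.55 with Mal and 0.42 with Mbp. Taken as deviations from the group means, Trf with Tmem88b stayed at 0.96 and Mog with Cnp at 0.98. Between the sets r then ran from 0.40 for Mbp with Trf to 0.68 for Mog with Tmem88b, so they were less separate within groups. Mag then had 0.87 with Mog and 0.85 with Cnp, close to its 0.90 with Trf.

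**Figure D4:**
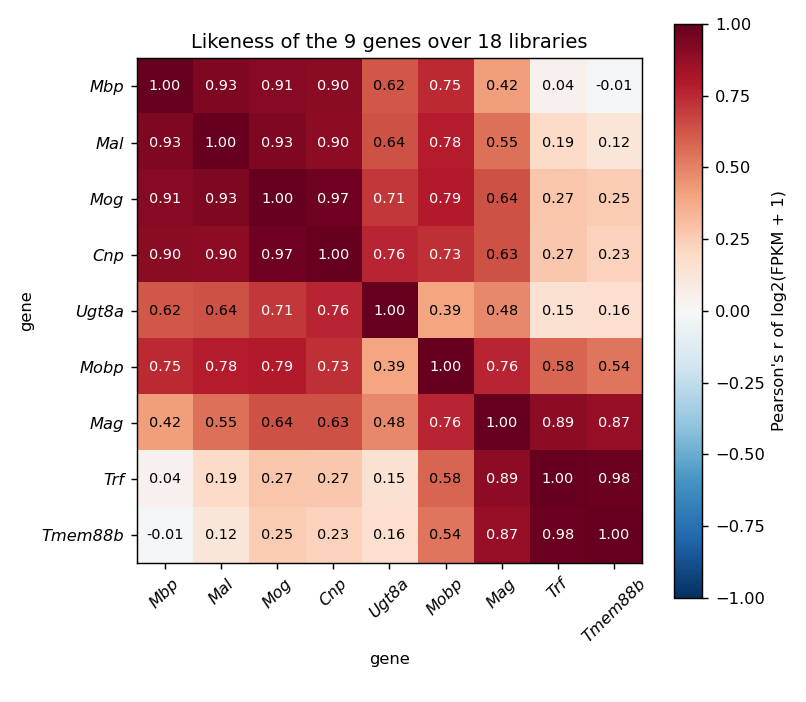
Pearson's r of log2(FPKM + 1) between each pair of the 9 genes over 18 libraries, written in each cell and coloured from -1 to 1. Mbp, Mal, Mog and Cnp form a block at 0.90 to 0.97, and Mag, Trf and Tmem88b a block at 0.87 to 0.98.

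Ratios within a library, which do not depend on its scaling, also set Trf apart from Mbp. Trf was at 0.171, 0.173 and 0.175 of the Mbp level in the 3 Sham_C libraries and between 0.269 and 0.359 in Sham_T. At 24 h it was between 0.664 and 1.48 in R24h_C and between 0.252 and 1.65 in R24h_T, with R24h_T3 lowest. At 28 d the ratio was between 0.288 and 0.365 in R28d_C and between 0.200 and 0.623 in R28d_T, again with library 3 lowest. By contrast the ratio of Mog to Mbp stayed between 0.109 and 0.183 in all 18 libraries, and that of Mal to Mbp between 0.383 and 0.628. Trf was not alone in departing from Mbp. The ratio of Mobp to Mbp was 0.969 to 1.04 in Sham_C and 1.47 to 2.01 in R24h_C. That of Mag was 0.140 to 0.171 and 0.288 to 0.427, and that of Tmem88b 0.0544 to 0.0582 and 0.146 to 0.359. In the Tiparp arm the ratios of Mobp, Mag and Tmem88b overlapped between sham and 24 h. A ratio shows unequal change of the 2 transcripts, not which of them changed.

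**Figure D5:**
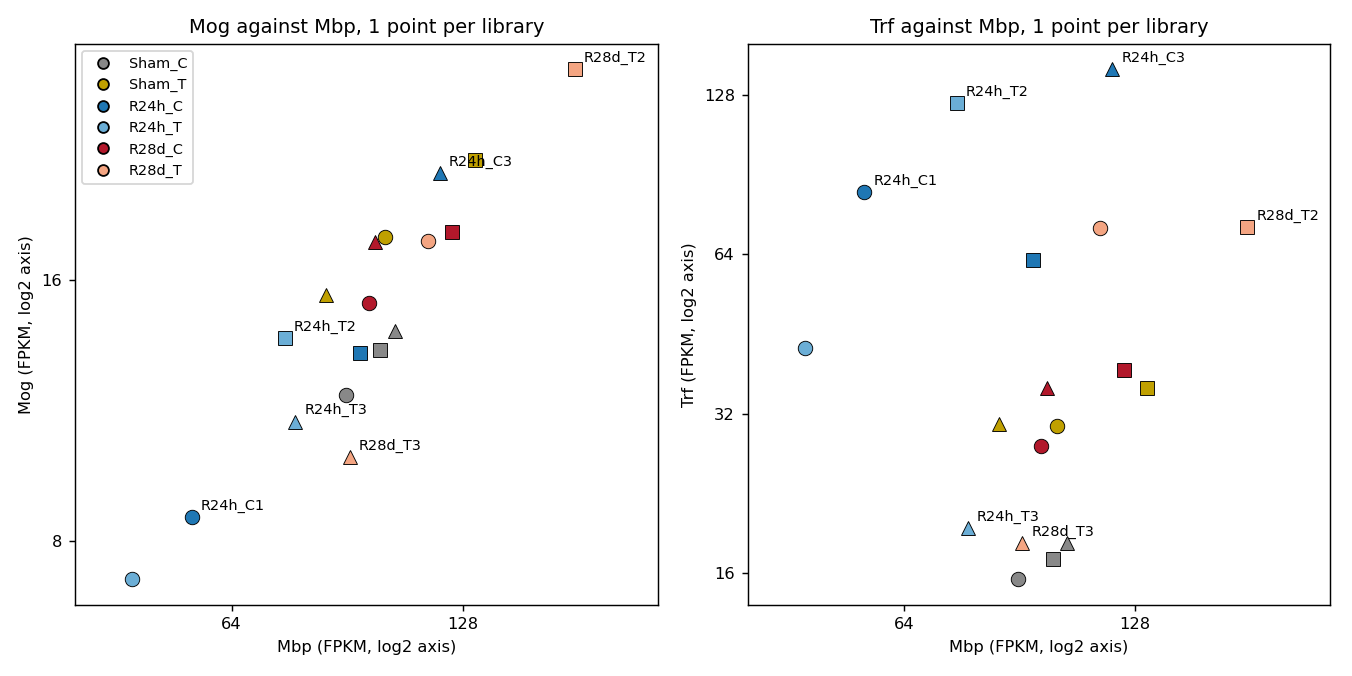
Mog (left) and Trf (right) against Mbp, in FPKM on log2 axes, with 1 point per library, colour for the group and shape for the library number. Mog rises with Mbp across all groups, whereas at like Mbp levels Trf lies highest in 24 h libraries and lowest in Sham_C, R24h_T3 and R28d_T3.

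Genes most like the mean of the 9, each scaled to mean 0 and SD 1 over the 18 libraries, included Itgb4 (r = 0.93), S1pr5 (0.90), Ppp1r14a (0.90) and Tmem98 (0.89), among 14964 genes compared. S1pr5 is a sphingosine phosphate receptor of oligodendrocytes. The nearest gene outside the 9 was Pla2g16 for Mbp (r = 0.89), Lpar1 for Cnp (0.96), Prr18 for Mog (0.95) and Itgb4 for Mobp (0.89). It was Ermn for Mag (0.94), Galnt6 for Trf (0.96), Rap1a for Tmem88b (0.95) and Fam120c for Ugt8a (0.87).

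Some gene models overlap, which can move counts between them. Exons of Cnp overlap those of Dnajc7 on the other strand, which averaged 23.1 FPKM, and whether the strand was used in counting is not given in the sources used here. Exons of Trf overlap those of Gm20425 on the same strand, which averaged 0.735 FPKM and reached 2.58 FPKM.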

How the data were processed

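RNA of the ipsilateral cortex was sequenced as stranded, poly(A)-selected, paired-end libraries with unique molecular identifiers, per the labels' protocols. The authors deposited FPKM values per gene, and the submitters' processing notes name HISAT, StringTie, edgeR and mm9, without roles or versions. Read counts were not analysed here. Of 37319 rows, 62 symbols occur more than once, and the entry with the highest mean was kept. Differences were tested with limma 3.58.1 (R 4.3.3, lmFit and eBayes with trend, two-sided) on log2(FPKM + 1) over the libraries of the groups compared, for genes with at least 1 FPKM in at least 3 of them, with Benjamini-Hochberg adjustment over all genes tested and a threshold of 0.05. The pseudocount makes differences of low genes smaller. The code was tested on simulated data. The 9 genes, the other gene lists and the tests were chosen with earlier results of these data known. All 9 genes are named, and of each other list up to 4 genes past the threshold with the smallest p. Some genes that this rule would name are not reported here. Results were recomputed with the pseudocount at 0.1, without the filter, after scaling by median ratios, with the library number as a block, from a single fit of the 18 libraries, and leaving out 1 library at a time.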

Additional observations from a re-analysis of the deposited data

How the results depend on the processing

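None of the 9 genes changed direction past the threshold under any setting run, and a pseudocount of 0.1 and median-ratio scaling changed no count of the 9 genes. Scaling moved the median of all genes at 24 h over both arms from 0.10 to 0.01. Over both arms at 24 h, 2 genes passed, 2 to 3 with a library left out (Mog, lower, was the third without R24h_C3) and 0 without the libraries high in Ttr. At 28 d, 0 passed, 0 to 5 with a library left out (5 without R28d_T3). Between 28 d and 24 h, 0 passed, 1 with all 18 libraries in 1 fit (Mbp) and 1 without R24h_T3 and R28d_T3 (Cnp). In the control arm at 24 h, 3 passed, 2 with no filter (Mag lost its call) and 1 to 3 with a library left out. In the control arm at 28 d, 1 passed, 0 with no filter, 0 with the replicate block, 0 with all 18 libraries in 1 fit, and 0 to 2 with a library left out (2 without R28d_C1). In the Tiparp arm at 28 d, 0 passed, 0 to 2 with a library left out (2 without R28d_T3). Between arms after sham surgery, 2 passed, 0 with no filter, 0 with the replicate block, 0 with all 18 libraries in 1 fit, 0 without the libraries high in Ttr, and 0 to 2 with a library left out (0 without Sham_C1, Sham_C2 or Sham_T1, and 1 without Sham_C3). The cause of these changes was not tested. No gene of the 9 passed under any setting in the Tiparp arm at 24 h, between arms at 24 h or 28 d, or in either difference of responses.

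Library numbers did not pair the libraries: of 45 same-numbered pairs, 4 had an r of deviations over 0.1. The block moved the count of all genes from 610 to 187 between 28 d and 24 h, from 3333 to 1991 in the control arm at 24 h, from 27 to 64 in the Tiparp arm at 24 h, from 7 to 1 in the control arm at 28 d and from 28 to 6 between sham arms. Without the filter these counts were 30, 1780, 1, 3 and 6, and with all 18 libraries in 1 fit 2544, 3699, 68, 0 and 0. At 3 libraries a group, with R24h_T3 and R28d_T3 unlike their groups, the 95% intervals of Trf for the arms at 24 h (-2.38 to 0.51) and 28 d (-0.81 to 1.66) were wide. The data do not tell apart the differences within these intervals, which are of either sign.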
